A study of Arabidopsis thaliana with 8 samples.

Results

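The 4 genes described here take part in calcium signalling in Arabidopsis thaliana: the calmodulin-like genes CML38 (AT1G76650) and CML42 (AT4G20780), the EF-hand gene AT3G47480, and the glutamate receptor-like channel gene GLR2.7 (AT2G29120). They were taken by gene symbol or locus, and each has 1 probe set among the 22746 gene probe sets of the Affymetrix ATH1 array. All 4 loci are listed in RefSeq's TAIR10.1 gene table.

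RNA of whole plants was measured on 8 arrays, 1 for each of 4 lines at 12.5 mM and at 1 mM CaCl2. Besides a lab calcicole and a lab calcifuge, the lines are wild ecotypes labelled high soil pH (wild high-pH below) and low soil pH (wild low-pH). All were grown in sterile sand with half-strength Long Ashton nutrient solution in a growth room, and the CaCl2 supply is the treatment. Calcicole plants thrive on soil rich in lime, and calcifuge plants do not. The labels give no accession name, plant age or number of pooled plants, and each line has a single array at each dose.

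Plant cells answer touch, wounding, pathogens, low oxygen and other stimuli with brief rises of calcium in the cytosol. Channels of the glutamate receptor-like family let calcium in, and sensor proteins with EF-hands, the loops that bind the ion, pass the signal on. Calmodulin is the best known sensor, and plants have a large family of calmodulin-like proteins besides. CML38 is known as a gene induced by wounding and by low oxygen, CML42 for roles in trichome branching and in defence against herbivores, and GLR2.7 for the calcium influx that follows recognition of microbial patterns.

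The deposited value is the MAS5 signal, a linear intensity that is comparable between arrays for 1 probe set but not between probe sets. The median signal per array was 42.3 to 47.8, and no array stood apart: arrays of 1 line at both doses correlated at 0.917 to 0.948 across tested probe sets. For a tissue labelled as whole plant, the leaf genes PRK, PSAE-1, RCA and LHCB4.1 had signals of at least 1159 on every array. The root genes PYK10 (49.2 to 830) and LBD16 (19.6 to 40.3, under the median of every array) were also measured. The other leaf and root genes looked for had no value here, so the share of root RNA on each array is not known. Differences below are on the log2 scale of the signal plus 2.51, with the standard error (SE) of a limma fit over 13647 probe sets, and a call is a Benjamini-Hochberg adjusted p under 0.05 over all of them. All 4 genes passed the filter on dim probe sets that left out 9099.

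The first comparison asked how the genes differ between plants at 12.5 mM and at 1 mM CaCl2. The EF-hand gene AT3G47480 and CML42 were lower at 12.5 mM in all 4 lines, a pattern held by 10.5% of all tested probe sets, and CML38 and GLR2.7 were lower in 3 of the 4 lines. All 4 genes were thus lower in at least 3 lines, as were 32.6% of probe sets. The 4 genes were chosen with earlier results of these data known, so such shares are a description only. None of the 4 passed the threshold, as for all but 0.0147% of the probe sets tested. At an unadjusted limma p under 0.05 there were 2 of the 4, AT3G47480 and CML42, against 13% of all probe sets. Here the 4 lines stand in for replicates, so the error is the departure of single lines from a shared change. In RNA of whole plants, fewer cells that express a gene and less of its RNA per cell cannot be told apart.

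**Figure D1:**
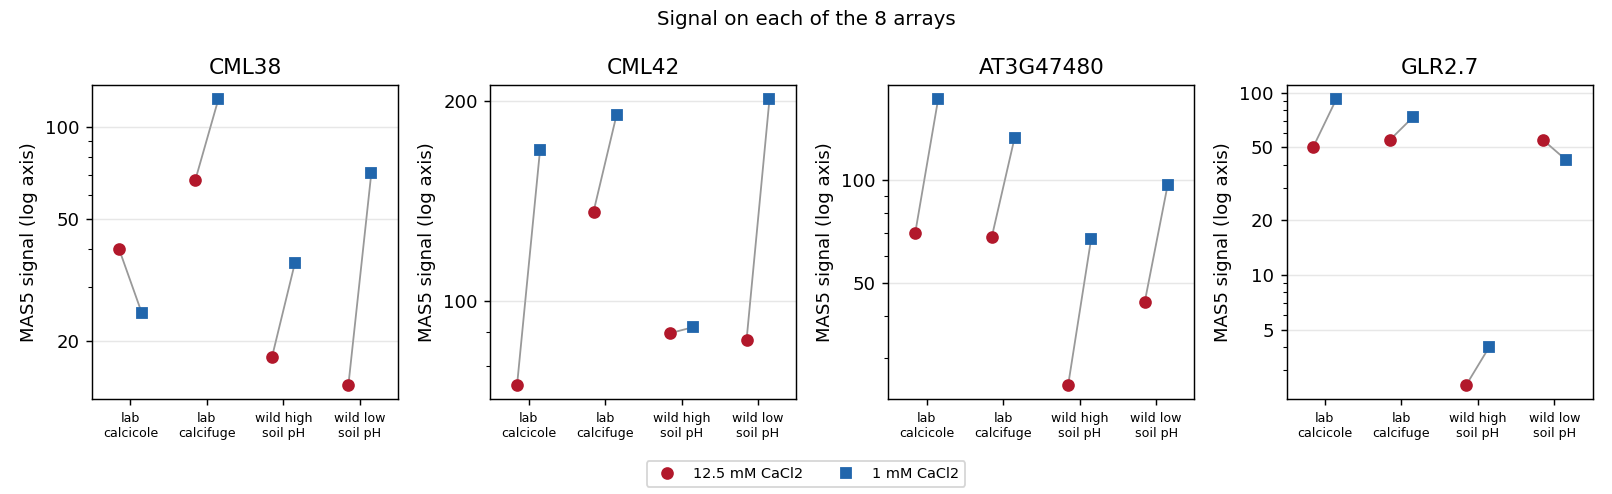
MAS5 signal (log axis) of each gene on the 8 arrays, by line, with 12.5 mM CaCl2 as circles and 1 mM as squares and a grey line joining the arrays of 1 line. AT3G47480 is lower at 12.5 mM in each line, and GLR2.7 is at 2.48 and 4.01 in wild high-pH plants, below its other 6 arrays.

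AT3G47480 belongs to the EF-hand calcium-binding group and has no symbol of its own in RefSeq. Its signal at 12.5 mM was 70.0 in the lab calcicole, 68.0 in lab calcifuge plants, 25.0 in wild high-pH plants and 43.8 in wild low-pH plants, against 173, 134, 67.2 and 96.8 in the same lines at 1 mM. Each line was lower at 12.5 mM, while the doses overlapped across lines, because the wild high-pH line at 1 mM was below both lab lines at 12.5 mM. The change was of similar size in each line, from -0.95 in the lab calcifuge to -1.34 in wild high-pH plants. The fit gave -1.17 ± 0.15 (SE, 4 lines, 95% interval -1.51 to -0.83, limma adjusted p 0.0724), and 7 of the 13647 probe sets had a smaller p. This p moved across the threshold: without the lab calcifuge line it was 0.0467 and with a pseudocount of 16 it was 0.0463, whereas without the wild low-pH line it was 0.229 and with no filter it was 0.354. Over all settings tried, the limma adjusted p was 0.0384 to 0.916.

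CML42 encodes a calmodulin-like sensor. Its signal at 12.5 mM was 74.9 in the lab calcicole, 136 in lab calcifuge plants, 89.6 in wild high-pH plants and 87.5 in wild low-pH plants, against 169, 190, 91.5 and 201 in the same lines at 1 mM. The 1 mM arrays were high in 3 lines, and the wild high-pH line had nearly equal signals at both doses. The changes were -1.15 in the lab calcicole, -0.47 in lab calcifuge plants, -0.03 in wild high-pH plants and -1.18 in wild low-pH plants. The fitted change was -0.71 ± 0.22 (SE, 4 lines, 95% interval -1.23 to -0.19, limma adjusted p 0.253).

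CML38 was the most uneven of the sensors across lines. Its signal at 12.5 mM was 40.1 in the lab calcicole, 67.5 in lab calcifuge plants, 17.7 in wild high-pH plants and 14.4 in wild low-pH plants, against 24.7, 124, 36.0 and 71.0 in the same lines at 1 mM. The lab calcicole was higher at 12.5 mM and the other 3 lines were lower. Its change ran from -2.12 in wild low-pH plants to 0.65 in the lab calcicole, with -0.85 for the lab calcifuge and -0.93 for the wild high-pH line. The fitted change was -0.81 ± 0.38 (SE, 4 lines, 95% interval -1.71 to 0.09, limma adjusted p 0.426). It was -0.38 without the wild low-pH line and -1.30 without the lab calcicole.

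GLR2.7, the channel gene, differed less between doses. Its signal at 12.5 mM was 50.4 in the lab calcicole, 54.9 in lab calcifuge plants, 2.48 in wild high-pH plants and 55.1 in wild low-pH plants, against 92.0, 73.2, 4.01 and 42.8 in the same lines at 1 mM. At both doses the wild high-pH line was far below the others, and only the wild low-pH line was higher at 12.5 mM. The changes ran from -0.84 in the lab calcicole to 0.34 in wild low-pH plants. The fitted change was -0.32 ± 0.21 (SE, 4 lines, 95% interval -0.80 to 0.16, limma adjusted p 0.565). It was -0.15 without the lab calcicole and -0.54 without the wild low-pH line.

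**Figure D2:**
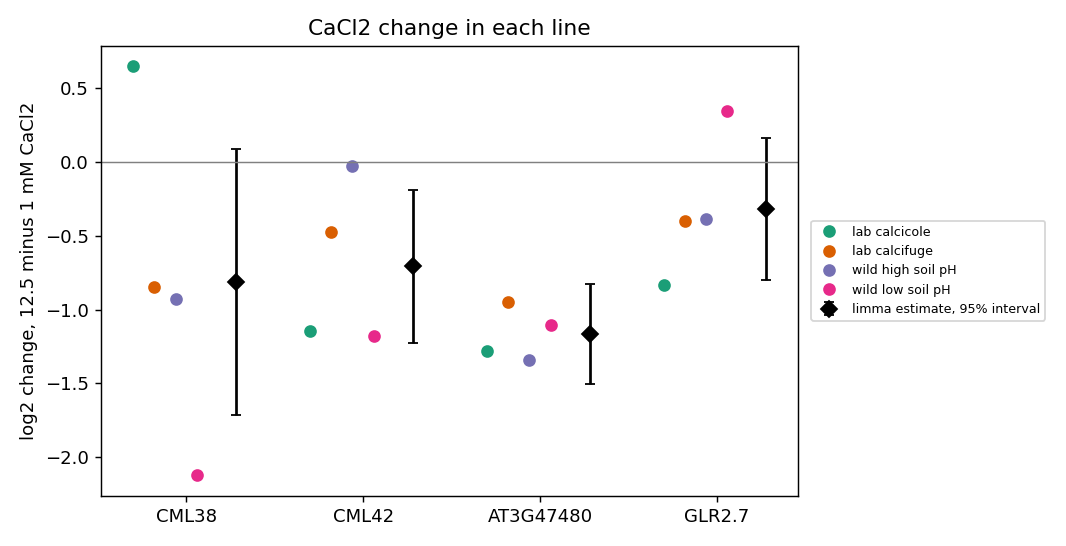
Log2 change of the signal plus pseudocount, 12.5 minus 1 mM CaCl2, for each gene in each of the 4 lines (circles), with the limma estimate and its 95% interval (diamonds). The 4 changes of AT3G47480 lie between -1.34 and -0.95, and those of CML38 between -2.12 and 0.65.

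The change was next compared between the class of lab calcicole and wild high-pH (calcicole-class) and the class of lab calcifuge and wild low-pH (calcifuge-class), and between lab and wild lines. CML38 gave the largest values of the 4 in both. Its change differed by 1.35 ± 0.64 between calcicole-class and calcifuge-class lines (limma adjusted p 0.812, 2 lines a class). Between lab and wild lines it differed by 1.43 ± 0.61 (limma adjusted p 0.990, 2 lines each). With 1 line left out at a time the first difference lay between 0.56 and 2.13 and the second between 0.68 and 2.17, both lowest without the lab calcicole. For AT3G47480 the same differences were -0.28 ± 0.28 and 0.11 ± 0.31, with 95% intervals of -0.96 to 0.40 and -0.64 to 0.86. For CML42 they were 0.24 ± 0.47 and -0.21 ± 0.47, and for GLR2.7 -0.58 ± 0.37 and -0.60 ± 0.38. Without the wild low-pH line those of GLR2.7 were -0.21 and -0.23. In limma none of the 4 passed in either comparison, as for all probe sets (0% called), and 0 of the 4 had an unadjusted p under 0.05, against 5.9% and 5.03% of all probe sets.

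The second question was how the levels differ between lines. Here the 2 doses of a line stand in for its replicates. The error is the departure of single lines from a shared dose change. It is not the spread between plants or cultures of a line. GLR2.7 had a low signal in wild high-pH plants and not in the other 3 lines. Its signals there, 2.48 and 4.01 at 12.5 and 1 mM, were below the range of 42.8 to 92.0 on the other 6 arrays. Probe sequences were not used, so less RNA and weaker hybridisation to the probes cannot be told apart in the wild high-pH line. Of all tested probe sets 5.44% were lower in this line on both arrays than on every other array, and of the 4 genes only GLR2.7 was. The wild difference, high minus low pH, was -3.16 ± 0.29 (SE, 2 arrays per line, 95% interval -3.84 to -2.49, limma adjusted p 0.00707). It was the only 1 of the 4 genes past the threshold in that comparison, in which 0.33% of probe sets passed and 0.205% passed as lower.

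The size of this difference rests on very low signals, 1 of them just under the pseudocount. With a pseudocount of 16 it was -1.75 and with a pseudocount of 1 it was -3.57, past the threshold both times. The adjusted p was 0.0941 without the wild high-pH array at 12.5 mM, 0.0835 without the one at 1 mM, and 0.0659 with no filter, and it was 0.00602 to 0.0941 over all settings tried.

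In the lab lines GLR2.7 showed no such gap: calcicole minus calcifuge was 0.10 ± 0.29 (95% interval -0.58 to 0.78, limma adjusted p 0.865). Lab calcicole minus calcifuge exceeded wild high minus low pH by 3.27 ± 0.41 (limma adjusted p 0.0199), and GLR2.7 was the only 1 of the 4 genes past the threshold there, against 1.16% of all probe sets. This test lost its call with a pseudocount of 16 (adjusted p 0.0504), with no filter (0.104) and without any of 6 single arrays (0.0534 to 0.0870), namely the lab calcicole at 1 mM, both lab calcifuge, both wild high-pH and the wild low-pH at 12.5 mM. The lab calcicole and the lab calcifuge were above the wild high-pH line by 3.63 ± 0.29 and 3.53 ± 0.29 (limma adjusted p 0.00199 and 0.00305), comparisons that share its arrays. The lines ordered as lab calcicole, lab calcifuge, wild low-pH and wild high-pH, with geometric mean signals of 68.1, 63.4, 48.6 and 3.15. Among the first 3 no pair passed.

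AT3G47480 was also lowest in wild high-pH plants, by less. Its geometric mean signal was 110 in the lab calcicole, 95.3 in lab calcifuge plants, 65.1 in wild low-pH plants and 41.0 in wild high-pH plants, an order that was the same at both doses. The lab calcicole was above the wild high-pH line by 1.37 ± 0.21 (limma adjusted p 0.0126) and the lab calcifuge was above it by 1.16 ± 0.21 (limma adjusted p 0.0253). Neighbours in this order did not pass: the lab calcicole minus the lab calcifuge was 0.20 ± 0.21, the lab calcifuge minus the wild low-pH line was 0.53 ± 0.21, and the wild high-pH minus the wild low-pH line was -0.63 ± 0.21 (limma adjusted p 0.595, 0.194 and 0.379). Both calls were lost with no filter (adjusted p 0.0629 and 0.0918). The first was also lost without the lab calcicole array at 12.5 or 1 mM (0.0752 and 0.0753) or the wild high-pH array at 12.5 mM (0.117). The second was lost without the lab calcifuge array at 12.5 or 1 mM (0.132 and 0.0518) or the wild high-pH array at 12.5 or 1 mM (0.159 and 0.0945).

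**Figure D3:**
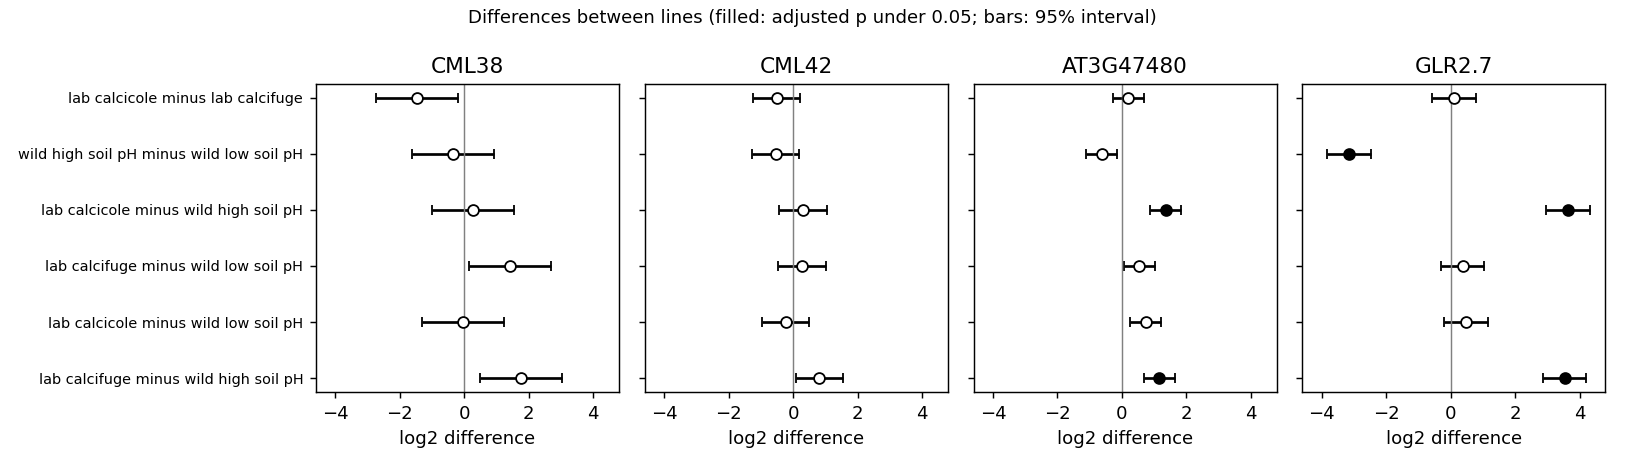
Fitted log2 differences between lines for each gene, with 95% intervals, filled where the limma adjusted p is under 0.05. GLR2.7 is filled in the 3 pairs that hold the wild high-pH line, at -3.16, 3.63 and 3.53, and AT3G47480 in both pairs that set a lab line against it.

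CML38 had its highest level in the lab calcifuge. The geometric mean signal was 91.3 in lab calcifuge plants, 32.0 in wild low-pH plants, 31.4 in the lab calcicole and 25.2 in wild high-pH plants. The lab calcicole minus the lab calcifuge was -1.46 ± 0.54 (95% interval -2.74 to -0.19, limma adjusted p 0.164), and this gap was -0.72 at 12.5 mM and -2.21 at 1 mM. The lab calcifuge was above the wild low-pH and wild high-pH lines by 1.41 ± 0.54 and 1.75 ± 0.54 (limma adjusted p 0.191 and 0.104). Without the lab calcicole array at 1 mM the gap between the lab lines was -0.49, and without the wild low-pH array at 12.5 mM the lab calcifuge was 0.54 above that line. Between the wild lines, high minus low pH, the difference was -0.34 ± 0.54, and it turned to 0.54 without the wild low-pH array at 1 mM. In no pair of lines did CML38 pass, although for the lab calcifuge over the wild high-pH line the adjusted p was 0.0485 without the lab calcicole.

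CML42 differed least between lines. Its geometric mean signal was 161 in lab calcifuge plants, 133 in wild low-pH plants, 112 in the lab calcicole and 90.5 in wild high-pH plants. The lab difference, calcicole minus calcifuge, was -0.51 ± 0.31 and the wild difference, high minus low pH, was -0.54 ± 0.31 (limma adjusted p 0.382 and 0.716), with 95% intervals of -1.24 to 0.23 and -1.27 to 0.19. The widest pair was the lab calcifuge over the wild high-pH line, at 0.82 ± 0.31 (limma adjusted p 0.168). Without the wild high-pH array at 1 mM it was 0.36, and the wild difference was -0.089. Without the lab calcicole array at 12.5 mM the lab difference was -0.22. No pair passed.

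Over the 6 pairs of lines, 2 of the 4 genes passed in the lab calcicole against the wild high-pH line, where 9.36% of probe sets passed and 4.54% passed as higher, and 2 in the lab calcifuge against that line, where 5.77% passed and 3.42% passed as higher. In limma 0 of the 4 passed between the lab lines (4.53% of probe sets), with 1 at an unadjusted p under 0.05 (23.2% of probe sets). Likewise 0 passed between the lab calcifuge and the wild low-pH line (2.46%), with 2 at an unadjusted p under 0.05 (21.6%), and 0 between the lab calcicole and the wild low-pH line (8.54%), with 1 at that p (29.2%).

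The 4 genes were then set beside other genes of calcium signalling. Of a list of calmodulins, calmodulin-like proteins, kinases, channels, pumps and other calcium genes, 13 others had a probe set naming 1 gene, and 8 of these passed the filter. The 13 were calmodulin-like genes, glutamate receptor-like genes and the calreticulin gene CRT1B, so no calmodulin, kinase or pump was compared. Of the 172 list genes matched to RefSeq, 16 had such a probe set, with 3 of the 4 genes among them. In the CaCl2 comparison 0 of the 8 passed in either direction, against 0.0147% of all tested probe sets. Of the 8, 2 had an unadjusted limma p under 0.05, against 13% of all tested probe sets. The median change of the 8 was -0.08, against 0.01 over all tested probe sets and -0.76 over the 4 genes. Between the lab lines 0 of the 8 passed and 1 had an unadjusted p under 0.05, against 4.53% and 23.2% of all tested probe sets. Between the wild lines 0 of the 8 passed and 1 had an unadjusted p under 0.05, against 0.33% and 9% of all tested probe sets. The medians of the 8 between the lab lines and between the wild lines were 0.02 and -0.03, against 0.01 over all tested probe sets both times and -0.20 and -0.59 over the 4 genes. The 4 genes and the list were chosen with earlier results of these data known, so these medians and shares are a description only.

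Among these 8, CRT1B, which encodes a calreticulin that binds calcium in the endoplasmic reticulum, was lower at 12.5 mM in all 4 lines. Its signal at 12.5 mM was 506, 575, 540 and 371 in the lab calcicole, lab calcifuge, wild high-pH and wild low-pH lines, against 819, 730, 635 and 805 at 1 mM. All 4 values at 12.5 mM were below all 4 at 1 mM, as for 1.42% of all tested probe sets, and the fit gave -0.59 ± 0.18 (limma adjusted p 0.247). GLR3.5, another glutamate receptor-like gene, was higher at 12.5 mM in all 4 lines (10.6% of all tested probe sets), by 0.49 ± 0.18 (limma adjusted p 0.326). Between the lab lines, GLR3.5 and GLR3.6 were at 0.79 ± 0.26 and 0.47 ± 0.38, and GLR1.4 was at 0.10 ± 0.23. In the same comparison the calmodulin-like genes CML41 and CML43 were at -0.50 ± 0.27 and -0.58 ± 0.34. Between the wild lines CML41 was at -0.67 ± 0.27 and CML23 at -0.61 ± 0.53. None of these passed.

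**Figure D4:**
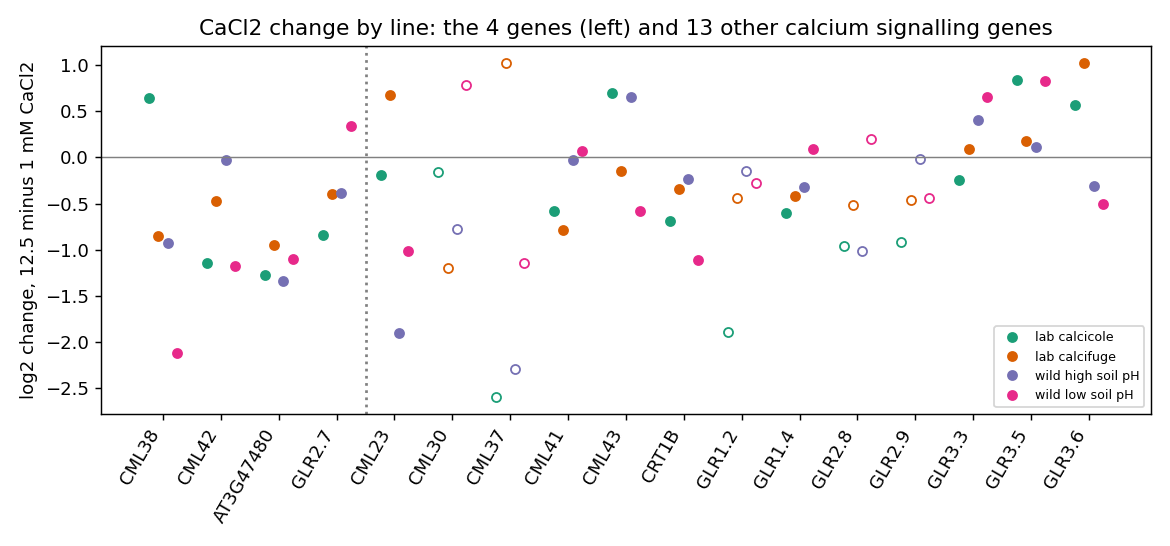
Log2 change, 12.5 minus 1 mM CaCl2, in each of the 4 lines for the 4 genes (left of the dotted line) and for 13 other calcium signalling genes; open circles mark genes left out by the filter on dim probe sets. Only CRT1B, GLR1.2 and GLR2.9 of the 13 are below 0 in all 4 lines, and only GLR3.5 is above 0 in all 4.

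Of the relatives of these genes, only those with a probe set naming 1 gene were looked at, and none is given for AT3G47480. CML37, GLR2.8 and GLR2.9 were too dim to pass the filter. CML37, which is related to CML38, had signals of 2.55 to 10.2 at 12.5 mM, against 3.76 to 34.4 at 1 mM. It was higher at 12.5 mM in lab calcifuge plants, whereas CML38 was higher at 12.5 mM in the lab calcicole. In a fit with no filter the change of CML37 was -1.26 ± 0.61 (limma adjusted p 0.584). CML43, related to CML42, was at 0.16 in the CaCl2 comparison, with 2 lines lower and 2 higher.

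GLR2.7 is the last of 3 consecutive glutamate receptor-like genes on chromosome 2, after GLR2.9 (AT2G29100) and GLR2.8 (AT2G29110), in the RefSeq gene order. GLR2.8 had 12.5 and 27.7 at 12.5 and 1 mM in wild high-pH plants, and 23.8 and 20.3 in wild low-pH plants. In the lab calcicole it had 29.4 and 59.7 and in the lab calcifuge 19.1 and 28.4, so the wild high-pH line held the lowest of the 8 values while its other value lay among those of the other lines. The wild difference of GLR2.8, high minus low pH, was -0.20 ± 0.35 in the fit with no filter (95% interval -1.07 to 0.67, limma adjusted p 0.956), against -3.16 for GLR2.7. GLR2.9 was at 0.64 to 8.76 on the 8 arrays, mostly under the pseudocount, so that it gives no order of lines.

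**Figure D5:**
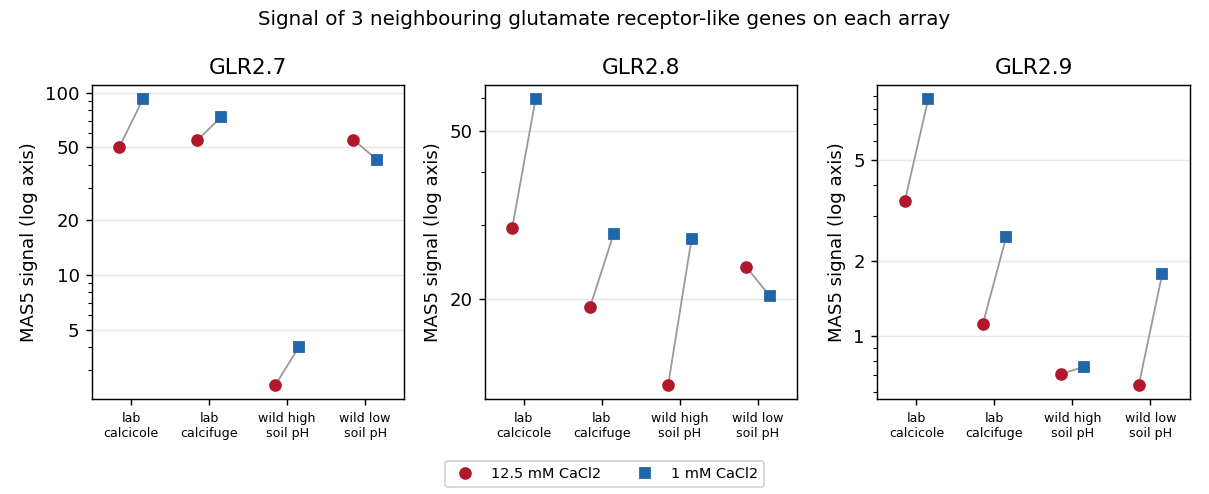
MAS5 signal (log axis, a scale of its own in each panel) of 3 consecutive glutamate receptor-like genes on the 8 arrays, by line, with 12.5 mM CaCl2 as circles and 1 mM as squares. GLR2.7 is at 2.48 and 4.01 in wild high-pH plants, while GLR2.8 is at 12.5 and 27.7 there and at 19.1 to 59.7 in the other lines.

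The patterns of the 4 genes over the 8 arrays were compared with each other and with the 7288 other tested probe sets that name 1 gene, by the Pearson correlation of log2 values, given as a description since the arrays share 4 lines and 2 doses. CML42 and AT3G47480 were the most alike of the 4, at 0.730, and CML38 and GLR2.7 the least, at 0.354. Closest to AT3G47480 were AT5G18490 (0.977), AT3G60540 (0.969), AT5G52760 (0.969), AT3G51440 (0.965) and PUB24 (0.959), a U-box ubiquitin ligase gene. AT5G52760, for instance, had signals of 89.3, 107, 20.2 and 52.2 at 12.5 mM in the lab calcicole, lab calcifuge, wild high-pH and wild low-pH lines, against 367, 183, 145 and 155 at 1 mM. Like AT3G47480 it was lower at 12.5 mM in each line and lowest in wild high-pH plants at both doses.

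Closest to GLR2.7 were AT4G20480 (0.970), PEL1 (0.959), AT2G02510 (0.951), the ubiquitin-conjugating enzyme gene UBC28 (0.947) and AT1G76510 (0.945). AT4G20480 had 8.21 and 6.72 at 12.5 and 1 mM in wild high-pH plants and 103 to 163 on the other 6 arrays. The likeness of PEL1 covers a narrow range of signals, from 84.5 to 123. Closest to CML42 were AT1G48170 (0.978), AT1G53760 (0.973), AT5G59080 (0.970), the chlorophyll synthesis gene PORB (0.968) and AT3G05230 (0.953). Ranges were narrow for AT1G48170 (106 to 144) and AT1G53760 (53.9 to 80.9) as well. PORB had signals of 802, 1357, 813 and 902 at 12.5 mM in the lab calcicole, lab calcifuge, wild high-pH and wild low-pH lines, against 1709, 1913, 992 and 1590 at 1 mM, lower at 12.5 mM in each line. Closest to CML38 were AT4G12340 (0.945), the RING finger gene ATL8 (0.945), AT5G26740 (0.940), AT1G61100 (0.938) and AT3G18860 (0.935). Narrow ranges also lay behind the likeness of AT4G12340 (104 to 146) and AT3G18860 (132 to 182). In the lab calcifuge AT4G12340 had 146 and 145 at 12.5 and 1 mM, whereas CML38 was lower at 12.5 mM there. Like CML38, ATL8 was higher at 12.5 mM in the lab calcicole (44.7, against 40.2 at 1 mM) and lower in wild low-pH plants (23.1, against 50.9 at 1 mM).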

How the data were processed

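RNA of whole plants was hybridised to 8 arrays, 1 per line and CaCl2 dose. The deposited intensity values are MAS5 signals on a linear scale, per the submitters' processing notes. MAS5 settings are not given in the sources used here. The deposited values were already scaled: the mean without the lowest and highest 2% was 100.0 on each array. Probe sequences and detection calls were not used here, so a difference between lines is a difference in hybridisation to the probes.

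Control probe sets (64 of 22810) were left out. Before log2, 2.51 was added as a pseudocount (the 10th percentile of gene signals), and probe sets in the lowest 40% by mean were left out, which left 13647. limma 3.58.1 (R 4.3.3) was fitted with lmFit and eBayes, two-sided, with Benjamini-Hochberg adjustment over all 13647. The CaCl2 and line differences were taken from a fit of line plus dose (3 residual degrees of freedom). In it lines stand in for replicates of the dose, and doses for replicates of a line. Differences in the CaCl2 change were interaction terms (2 residual degrees of freedom). The number of arrays limits the precision. The fits of the CaCl2 and wild line differences were run on simulated data. The check was only that the median estimate lay close to the planted change, which does not test the calls. These data had independent normal noise and no line differences beyond those planted, unlike the real arrays.

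The 4 genes, the calcium list and the comparisons were chosen with earlier results of these data known. Of 238 listed symbols 187 matched 1 RefSeq gene, for 172 genes, and 16 of these had a probe set naming 1 gene, 3 of them among the 4 genes. List genes were named where past the threshold or, with none, as the up to 3 each way with the largest smallest change in 1 direction in all 4 lines (for line differences, at both doses). Family relatives with a probe set were also named, and for each of the 4 genes the 5 most correlated probe sets. AT5G52760, PORB, ATL8, PEL1, AT1G48170, AT1G53760, AT4G12340 and AT3G18860 were picked from these for their values after these were seen. Alternatives covered scaling, pseudocount, filter, variance model, threshold, line block, probe sets of the _s_at and _x_at types, and each line or array left out. matplotlib 3.10.9 drew the figures.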

Additional observations from a re-analysis of the deposited data

Results flagged for a closer look

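GLR2.7 in wild high-pH plants at 12.5 mM had a log2 value of 2.32, apart from the other 3 lines at that dose by Dixon's criterion. That criterion was applied to 33 groups of 4 values from 11 genes, and chance marks about 1 group in 20. GLR2.7 also differed between lab and wild lines in its line difference, by 3.27 (limma adjusted p 0.0199).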

How the results depend on the processing

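No paired analysis was possible by replicate number because every array carries number 1. Pairing of the doses by line is part of the fit of line plus dose, and fits with no line block or a random one are given next. CML38 and GLR2.7 were left out by a stricter filter (60% of probe sets) and have no value there. A dose has 1 array per line and signals near the pseudocount carry little information, which limits GLR2.7 in wild high-pH plants. Leaving out 1 array of a line removes that line from the CaCl2 comparison. The cause of these shifts was not tested.

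For CaCl2, the 2 probe sets past the threshold became 1 with arrays centred on their medians, 30 with a pseudocount of 16, 0 with no filter, 14 with the stricter filter, 32 with a variance trend, 40 with trend and robust variances, 0 without _s_at and _x_at probe sets, 0 with no line block, 0 with the line as a random block, 103 at an adjusted p under 0.1, and 0 to 78 with a line left out. AT3G47480 passed at -0.98 with a pseudocount of 16, and at -1.17 with the stricter filter (limma adjusted p 0.0469), the trend (0.0487), trend and robust (0.0384) or the threshold of 0.1. With lines left out it was -1.24 to -1.11, and the exact p from flipping the signs of the line changes was 0.125, the lowest that 4 lines allow. By class, trend and robust variances gave 1 probe set and left-out lines 0 to 5, and by origin left-out lines gave 0 to 1. With lines left out CML42 was -0.32 to 0.80 by class and -0.78 to 0.37 by origin, CML38 was 0.56 to 2.13 and 0.68 to 2.17, GLR2.7 was -0.96 to -0.21 and -0.96 to -0.23, and AT3G47480 by origin was -0.057 to 0.27, with -0.018 at a pseudocount of 16.

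For the line pairs, counts are given with no filter, at an adjusted p under 0.1, and with arrays or lines left out. Between the lab lines they were 129, 1438 and 123 to 509. Between the wild lines they were 12, 100 and 9 to 46, with 21 under the stricter filter. They were 242, 2599 and 106 to 1443 for lab calcicole minus wild high-pH, 53, 976 and 17 to 220 for lab calcifuge minus wild low-pH, 190, 2565 and 48 to 1334 for lab calcicole minus wild low-pH, and 171, 1695 and 112 to 574 for lab calcifuge minus wild high-pH. For the lab minus wild difference they were 13, 354 and 12 to 74.

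With no filter these estimates lost their call: GLR2.7 at -3.16 between the wild lines and 3.27 lab minus wild, and AT3G47480 at 1.37 and 1.16 for the lab calcicole and the lab calcifuge over wild high-pH. GLR2.7 lab minus wild was 1.84 with a pseudocount of 16. AT3G47480 in lab calcicole minus wild low-pH passed at 0.74 with the stricter filter and at 0.1.

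With arrays or lines left out, GLR2.7 was -3.61 to -2.72 between the wild lines, 2.82 to 3.71 lab minus wild, -0.24 to 0.45 between the lab lines and -0.076 to 0.81 for lab calcifuge minus wild low-pH. AT3G47480 was 1.25 to 1.48 for lab calcicole and 1.02 to 1.31 for lab calcifuge over wild high-pH. CML38 was -2.44 to -0.49 between the lab lines, -1.21 to 0.54 between the wild lines, 0.54 to 2.29 for lab calcifuge minus wild low-pH, -0.69 to 1.26 and 1.67 to 1.83 for lab calcicole and lab calcifuge over wild high-pH, and -1.03 to 0.92 for lab calcicole minus wild low-pH. CML42 was -0.80 to -0.22 between the lab lines, -0.99 to -0.089 between the wild lines, 0.36 to 1.27 for lab calcifuge minus wild high-pH, -0.14 to 0.76 for lab calcicole minus wild high-pH, -0.041 to 0.59 for lab calcifuge minus wild low-pH, -0.55 to 0.081 for lab calcicole minus wild low-pH and -0.42 to 0.49 lab minus wild. Between the lab lines GLR3.6 was -0.087 to 1.03 and GLR1.4 -0.086 to 0.29, and between the wild lines CML23 was -1.47 to 0.26. Of the 5 genes most like each of the 4, between 3 and 5 stayed among the 5 under other scalings, pseudocounts and filters, except 1 for GLR2.7 with quantile normalization.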
